A study of Mus musculus with 6 samples.

Results

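The comparison described here set mouse cumulus-oocyte complexes taken 16 h after human chorionic gonadotropin (hCG) against complexes taken 8 h after it. Its members are all probe sets of an Affymetrix mouse genome array that are not controls and carry 1 gene symbol, 34945 of 45037, read on the 2 arrays of each time and so on 4 of the 6 arrays of the series. The other 2 arrays held complexes without hCG, and their levels are given for orientation. They also entered the filter on dim probe sets, the choice of a gene's probe set and the estimate of the spread. Per the labels' protocols, every array held pooled complexes of wild-type immature females. All groups had 48 h of equine chorionic gonadotropin (eCG), a hormone that makes follicles grow, and then either no hCG, 8 h of hCG or 16 h of hCG. Complexes without hCG were collected from punctured ovaries and are called expanded in the labels. Those of 8 h and 16 h are described as collected from the oviduct, although ovulation is usually not complete by 8 h. If the 8 h complexes were in fact ovarian, the place of collection and the time cannot be told apart. The labels do not say that the arrays of a group held complexes of separate animals, so the spread behind every p-value is that between these samples alone and may be technical.

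In such a complex layers of specialised granulosa cells, the cumulus, surround the oocyte. The luteinizing hormone surge, which hCG imitates, makes follicle cells release EGF-like factors. These drive cumulus cells to build a hyaluronan-rich matrix, to loosen their junctions with the oocyte and to stop dividing, while the oocyte resumes meiosis. In mice ovulation comes roughly midway through the interval studied here, after which the complex lies in the oviduct, where cumulus cells later disperse and die. An oocyte that resumes meiosis no longer transcribes its genome, and its stored messages are translated or degraded on a schedule.

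Values are the deposited log2 signals, 1 per probe set and array. Probe sets whose mean over the 6 arrays was under the 40th percentile (5.62) were not tested, which left 23341 probe sets with 1 symbol among 27022 tested in all. Of a gene's probe sets the brightest was used, so that 13559 genes entered. Changes are 16 h minus 8 h, as differences of log2 group means ± SE (n = 2 arrays per group), from limma fitted to all 6 arrays. A gene is called, and only then said to have risen or fallen, at a Benjamini-Hochberg adjusted p under 0.05 over all tested probe sets. Signals are relative to the other transcripts of the same array, so in these bulk samples fewer cells of a type and less RNA per cell cannot be told apart. Arrays of a group correlated at 0.996 (8 h) and 0.995 (16 h) across probe sets, and arrays of different times at 0.975 to 0.978. The complexes carried the markers of their label. The summed linear signal of 31 oocyte markers was 26280 and 24769 at 8 h and 41336 and 36611 at 16 h. That of 16 cumulus and granulosa markers was 73522 and 91255, then 54555 and 61031.

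Between 8 h and 16 h, 1598 genes rose (11.8% of those tested) and 1236 fell (9.12%), so that 20.9% of genes were called. The median change over all genes was 0.01, and the quartiles were −0.21 and 0.27. At least 2-fold rises were called in 686 genes and at least 2-fold falls in 543. At least 4-fold changes numbered 136 upward and 121 downward. The median rise was 0.91 and the median fall −0.92, and no change smaller than 0.48 was called. Of the rises 62 had an 8 h mean, and of the falls 83 a 16 h mean, under the testing limit of 5.62, so the sizes of these changes are uncertain. Among genes described below these are Ptprc, Itgb2, Rab27a, Gpm6a, Lcn2, Npas2, Itih5, Bmp2, Cryab and Pgr, beside those marked. Among probe sets, 2638 rose (9.76%) and 2284 fell (8.45%), 18.2% in all. In 4564 genes (33.7%) both 16 h arrays lay above both 8 h arrays, and in 3820 (28.2%) both lay below. The counts depended on each array. Genes that rose numbered 829 without 8 h replicate 1, 944 without 8 h replicate 2, 770 without 16 h replicate 1 and 981 without 16 h replicate 2. Genes that fell numbered 632, 685, 790 and 647 in the same order. Genes given below with a change kept their call and direction without any 1 of the 6 arrays unless a sentence says otherwise. Of the 60 genes named by size, 59 did so. The exception is Tmem255a, which was too dim to be tested without either 8 h array.

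**Figure D1:**
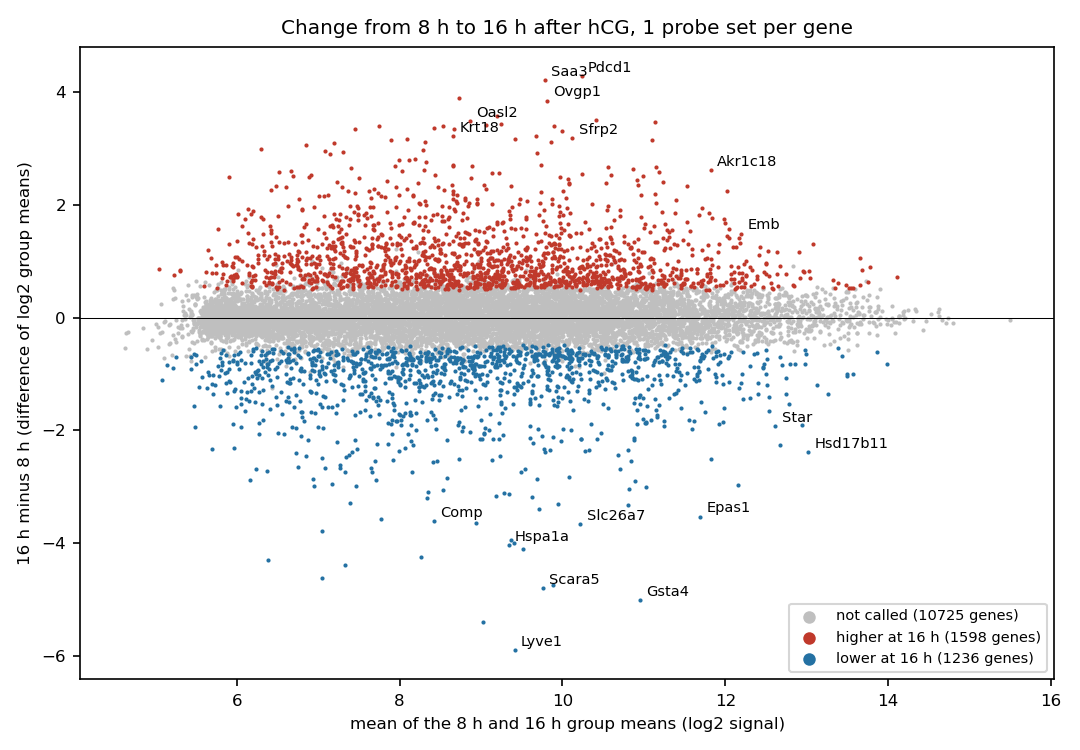
Difference between the 16 h and 8 h group means (vertical axis, log2) against their average level (horizontal axis, log2 signal) for 13559 genes, 1 probe set each. Red points are the 1598 genes called higher at 16 h, blue points the 1236 called lower and grey points the genes not called. Called genes lie at all levels, and the largest changes, 4.30 for Pdcd1 and −5.90 for Lyve1, lie in the middle of the range.

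The 20 largest rises ran from 3.19 to 4.30. Pdcd1, which encodes the inhibitory immune receptor PD-1, read 8.10 and 8.09 at 8 h and 12.49 and 12.29 at 16 h. The acute-phase gene Saa3 read 7.61 and 7.74, then 12.03 and 11.74. Tgfbi, an adhesive matrix protein induced by TGF-beta, read 7.21 and 7.58, then 10.85 and 11.12. In each of these genes both 16 h arrays lay far above both 8 h arrays, with changes of 4.30 ± 0.18, 4.21 ± 0.20 and 3.59 ± 0.18. Sfrp2, a secreted modulator of Wnt signalling, stood at 4.90 and 5.06 without hCG, at 8.44 and 8.61 at 8 h and at 11.90 and 11.53 at 16 h, so that it was higher at each later time. The surface lubricant gene Prg4 rose by 3.37 ± 0.24, the matricellular gene Ccn5 by 3.34 ± 0.18, the protease inhibitor gene A2ml1 by 3.36 ± 0.34 and the chemokine gene Ccl6 by 3.41 ± 0.22. The keratin gene Krt18 read 6.93 and 7.16 at 8 h and 10.47 and 10.07 at 16 h. Slc40a1, which encodes ferroportin, the exporter of iron from cells, read 8.53 and 8.78, then 12.13 and 12.20. Fbxo32, a ubiquitin ligase gene known from muscle wasting, rose by 3.40 ± 0.32, the transporter gene Slc12a8 by 3.44 ± 0.19, and Niban1 and Sh3bgr by 3.42 ± 0.21 and 3.90 ± 0.20. The other members of the 20 were Oasl2, Ovgp1, Lyz1, Lyz2, Ctss and Csf2rb, the last a shared receptor chain for cytokines of myeloid cells with a rise of 3.40 ± 0.20. Ovgp1, the oviduct glycoprotein gene, read 7.30 and 8.46 at 8 h and 11.95 and 11.52 at 16 h, so its 8 h arrays lay far apart. Adjusted p-values of the 20 ran from 1.93e-06 to 0.00164 by limma.

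Several of the 20 largest falls were of genes that stood high at 8 h and low both before hCG and at 16 h. Lyve1, a hyaluronan receptor, read 4.84 and 4.95 without hCG, 12.31 and 12.42 at 8 h and 6.85 and 6.07 at 16 h. Cd34, a sialomucin of progenitor and endothelial cells, read 7.11 and 7.77, then 12.21 and 12.30, then 7.70 and 7.33. Penk, the precursor of enkephalin peptides, read 7.39 and 7.63, then 11.67 and 11.48, then 7.52 and 7.40. In all 3 genes the 8 h arrays lay at least 3 log2 units above every other array. Scara5, a ferritin receptor gene, read 9.14 and 9.19, then 12.13 and 12.20, then 7.31 and 7.41. The chemokine receptor gene Cxcr4 read 4.94 and 5.03, then 11.20 and 11.48, then 7.49 and 7.30. Jcad, a protein of endothelial junctions, fell by 3.64 ± 0.22. Gpt2, a mitochondrial alanine transaminase, read 8.23 and 8.66 without hCG, 11.42 and 11.39 at 8 h and 8.18 and 7.83 at 16 h. Of the 20, 4 (Cldn1, Apela, Tmem255a and Pcdh8) had a 16 h mean under 5.62, so the sizes of their falls are uncertain.

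Other large falls took genes below their level before hCG. Slc26a7, an anion exchanger gene, read 12.41 and 12.98 without hCG, 11.94 and 12.16 at 8 h and 8.36 and 8.42 at 16 h. Comp, a pentameric matrix protein best known from cartilage, read 10.12 and 9.79, then 10.43 and 10.02, then 6.58 and 6.64. The protocadherin gene Pcdh18 fell by 3.58 ± 0.18 and Pcdh8 by 3.79 ± 0.27. Epas1, which encodes the hypoxia-inducible factor HIF-2 alpha, read 12.56 and 12.59, then 13.37 and 13.53, then 9.78 and 10.07. At 16 h all 5 genes had both arrays under all 4 others. Adjusted p-values of the 20 falls ran from 7.32e-07 to 4.43e-05 by limma.

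**Figure D2:**
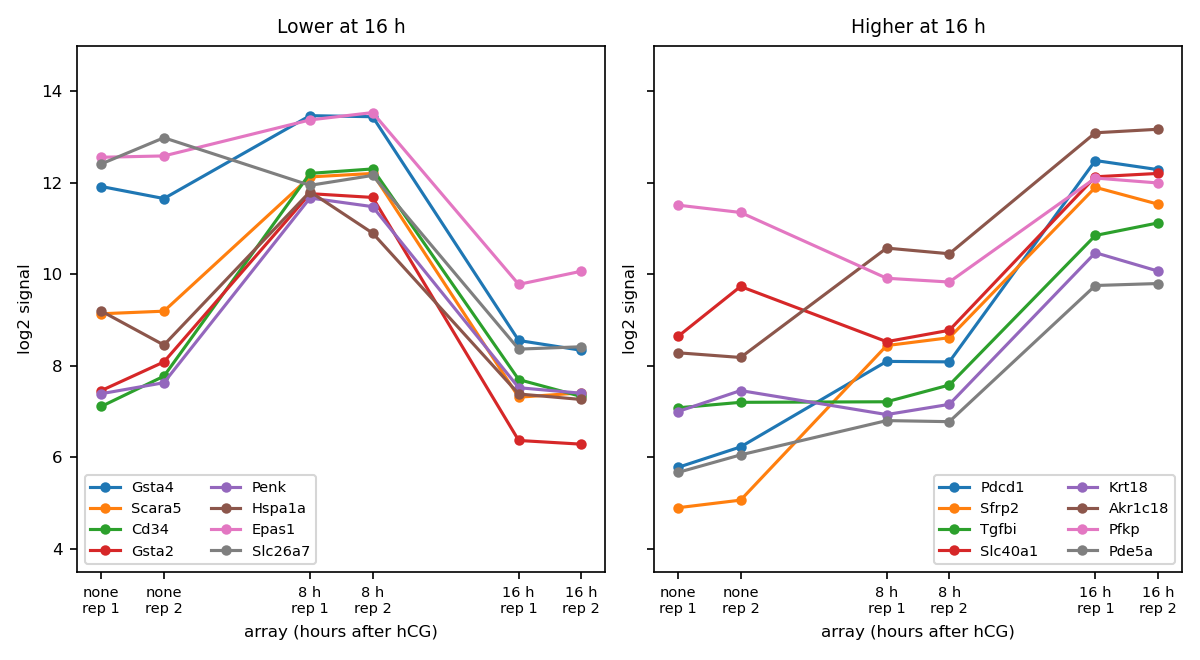
Log2 signal (vertical axis) of 8 genes that fell (left) and 8 that rose (right) on each of the 6 arrays (horizontal axis), 1 coloured line per gene; lines join the arrays of a gene and replicates have no order. Gsta4, Scara5, Cd34, Gsta2, Penk, Hspa1a and Epas1 peak on the 8 h arrays, Slc26a7 does not, and the genes at right are highest on the 16 h arrays.

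Among abundant transcripts, those with both group means above 11.2, the changes were smaller. Emb, a cell surface protein that accompanies a lactate transporter, stood at 7.88 and 8.18 without hCG, at 11.37 and 11.53 at 8 h and at 12.91 and 12.98 at 16 h. Fam126a rose by 1.58 ± 0.19, the drug efflux pump gene Abcb1b by 1.41 ± 0.21, Ermp1 by 1.33 ± 0.15 and the heparan sulfate polymerase gene Ext1 by 1.26 ± 0.15. A second probe set of Ext1 changed by 0.18 and was not called. The mitophagy receptor gene Bnip3 and the endosomal sorting gene Snx18 rose by 1.30 ± 0.17 and 1.26 ± 0.18, and the oocyte genes Bcl2l10 and Obox2 by 1.45 ± 0.15 and 1.31 ± 0.19. On the falling side, Hsd17b11, a lipid droplet steroid dehydrogenase, read 14.06 and 14.36 at 8 h and 11.83 and 11.82 at 16 h. Nts, the neurotensin precursor gene, read 13.82 and 13.79, then 11.63 and 11.45, against 5.60 and 6.54 without hCG. The metal-binding metallothionein genes Mt2 and Mt1 fell by 1.91 ± 0.17 and 1.36 ± 0.21, the actin-linker gene Pdlim1 by 1.66 ± 0.16, the nuclear import gene Kpna2 by 1.41 ± 0.18 and Pawr, a gene of programmed cell death, by 1.43 ± 0.20. A second probe set of Pdlim1 changed by −0.37 and was not called.

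The gene lists used below hold 37 processes and 8 cell types. For each list the counts of called members are given beside the shares over all tested genes, 11.8% higher and 9.12% lower, and no test of the list was run. The lists were chosen with earlier results of these data known. A list's share above those over all genes may therefore stem in part from that choice.

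**Figure D3:**
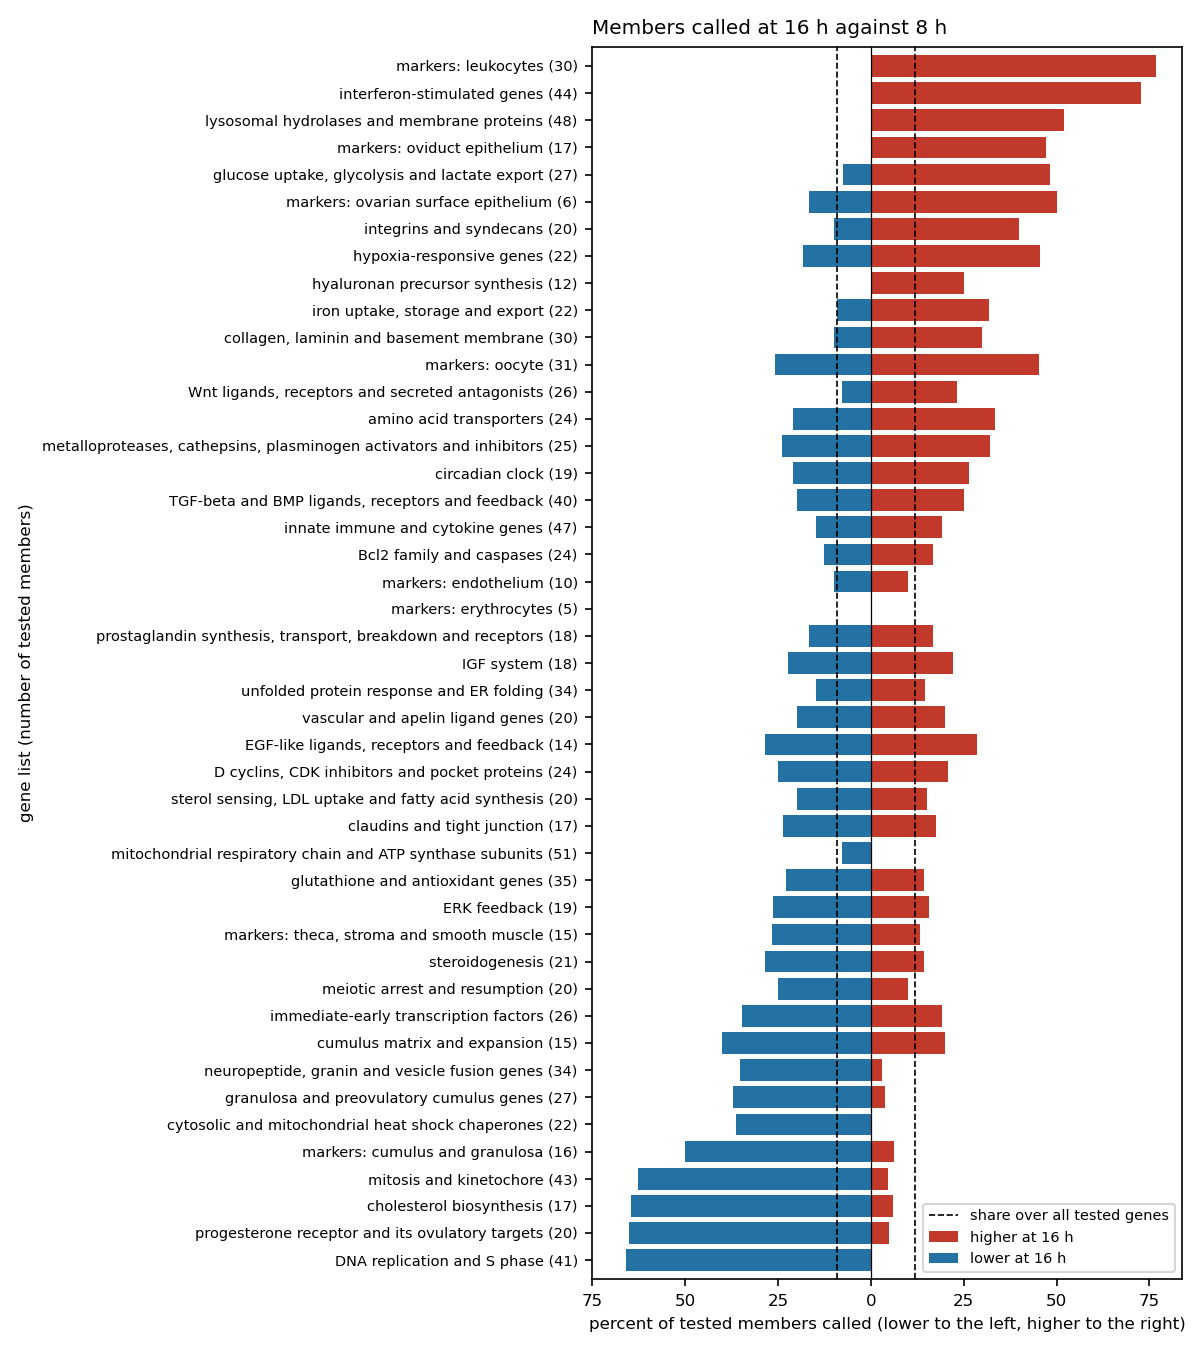
Percent of each list's tested members that rose (red, to the right) or fell (blue, to the left) between 8 h and 16 h; numbers in brackets are tested members and dashed lines mark the shares over all tested genes, 11.8% and 9.12%. Leukocyte markers, interferon-stimulated genes and lysosomal genes have the longest bars to the right with none to the left, and DNA replication genes the longest to the left. The lists were chosen with earlier results of these data known.

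Most tested interferon-stimulated genes rose. They are the targets of the type I and type II interferon receptors and include sensors of viral RNA, nucleases and antigen-processing proteins. Of 44 tested, 32 rose and 0 fell, with a median change of 1.38, against 0.01 over all genes. With 1 array left out in turn, between 26 and 33 rose. The promoters of 4 of the risers are shown because they hold an element bound by IRF proteins, searched for here as GAAA, any 2 bases and GAAA again on either strand. They come from RefSeq on build GRCm38.p6 and run from 25 bases before the element to the base before the gene's start, 5′ to 3′ on the gene's strand, with the element in capitals. They lie at chr12:26456453-26456597 (Rsad2, minus strand), chr8:71537473-71537627 (Bst2, minus strand, 2 overlapping elements), chr3:142620579-142620662 (Gbp2, plus strand) and chr3:142559974-142560043 (Gbp3, plus strand, 2 overlapping elements).
Rsad2: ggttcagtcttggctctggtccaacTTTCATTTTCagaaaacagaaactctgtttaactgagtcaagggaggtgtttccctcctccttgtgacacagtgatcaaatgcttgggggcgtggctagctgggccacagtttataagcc
Bst2: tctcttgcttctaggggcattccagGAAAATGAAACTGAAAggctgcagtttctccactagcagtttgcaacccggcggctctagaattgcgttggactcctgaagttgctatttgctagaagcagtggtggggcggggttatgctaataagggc
Gbp2: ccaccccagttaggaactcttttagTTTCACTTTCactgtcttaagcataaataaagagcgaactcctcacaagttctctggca
Gbp3: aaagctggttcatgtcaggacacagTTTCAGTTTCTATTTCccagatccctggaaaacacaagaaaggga

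The element begins 120 bases before the start in Rsad2, 130 in Bst2, 59 in Gbp2 and 45 in Gbp3. In the window from 250 bases before to 50 after the start it was found in 15 of 33 tested interferon-stimulated genes with a promoter entry (45.5%), in 10 of the 26 that rose and in 5 of the 7 that were not called. Among all tested genes with an entry, 374 of 10914 (3.43%) held it, and 3.44% of all 32851 promoters of the table. A match describes the letters only, not binding.

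The sensors and effectors rose on both 16 h arrays. Rsad2, which encodes the antiviral enzyme viperin, read 6.75 and 6.84 at 8 h and 9.38 and 8.85 at 16 h. Oasl2, of the oligoadenylate synthetase family, read 7.03 and 7.21, then 11.05 and 10.18. Ddx58, an RNA sensor, read 7.22 and 7.70, then 10.16 and 9.49. Every 16 h array of these genes lay above both 8 h arrays, with changes of 2.32 ± 0.19, 3.49 ± 0.25 and 2.36 ± 0.24. Bst2, which tethers budding virus, rose by 2.01 ± 0.19, the RNA sensor gene Ifih1 by 2.56 ± 0.21, the guanylate-binding genes Gbp3 and Gbp2 by 2.53 ± 0.33 and 2.24 ± 0.30 and the membrane-barrier gene Ifitm3 by 2.35 ± 0.28. Among the regulators, Irf7 rose by 2.39 ± 0.29 and Irf9 by 2.10 ± 0.19, while Stat2 (−0.14 ± 0.17, adjusted p = 0.679 by limma) and Irf1 (0.16 ± 0.17, adjusted p = 0.626) were not called. The chaperone of taste receptors Rtp4 read 8.39 and 8.22 at 8 h and 11.74 and 11.09 at 16 h. Parp14 and Parp9, which add ADP-ribose to proteins, rose by 2.22 ± 0.20 and 2.02 ± 0.21, with Dtx3l, the ubiquitin ligase partner of Parp9, by 2.04 ± 0.21. Psmb8 and Psmb9, subunits of the immunoproteasome, rose by 1.49 ± 0.22 and 1.27 ± 0.16, and the peptide transporter gene Tap1 by 1.32 ± 0.18. Psmb9 read 9.37 and 9.25 without hCG, so its 16 h arrays at 8.45 and 8.30 stayed below that level. The members not called included Cxcl10 (0.22 ± 0.19), Mx2 (0.09 ± 0.17) and B2m (0.40 ± 0.15).

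The rise of the interferon-stimulated genes differed in size between the 16 h arrays. In 31 of the 32 genes that rose, 16 h replicate 1 lay above replicate 2, with a median gap of 0.49, against 7809 of 13559 genes and a median gap of 0.04 overall. Oas1a read 10.01 and 8.74 at 16 h, and its change was 2.48 without replicate 2 and 1.20 without replicate 1. Leukocyte markers, given next, rose over the same interval. Their summed linear signal was 20843 on 16 h replicate 1 and 21637 on replicate 2, so it was not higher on replicate 1. The part of leukocytes in the rise of the interferon-stimulated genes was not tested.

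**Figure D4:**
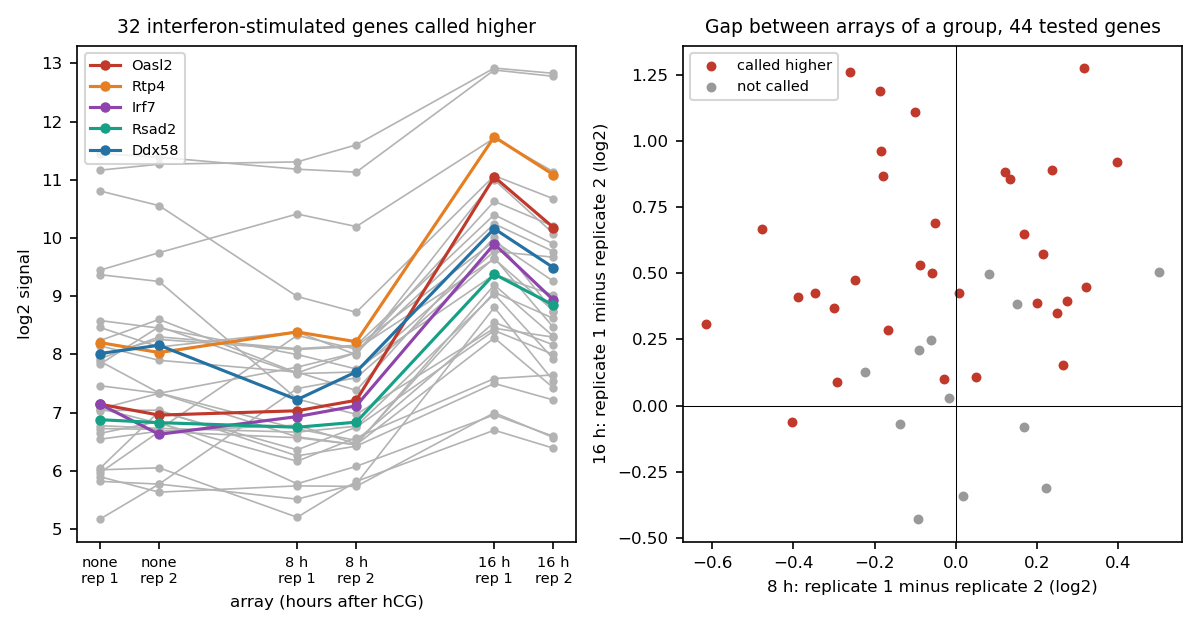
Left, log2 signal (vertical axis) of the 32 interferon-stimulated genes that rose, on each of the 6 arrays (horizontal axis), 1 grey line per gene and 5 in colour; every line is higher on the 16 h arrays than on the 8 h arrays. Right, gap between replicate 1 and replicate 2 at 16 h (vertical axis) against the same gap at 8 h (horizontal axis) for 44 tested genes; all but 1 of the red points, the genes that rose, lie above 0 on the vertical axis.

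Most tested leukocyte markers rose. Of 30 tested, 23 rose and 0 fell, with a median change of 1.59, and 19 to 23 rose with 1 array left out. Of the 23, 6 had an 8 h mean under the testing limit of 5.62, Ptprc and Itgb2 among them, and were tested because other arrays stood above it, so their rise was part of what let them be counted. The count was 15 without probe sets that may cross-hybridise, taken as all with names ending in _x_at, _s_at or _a_at. It was 12 with the filter on dim probe sets at the 60th percentile, under which fewer markers are tested. Their summed linear signal was 5877 and 5971 at 8 h and 20843 and 21637 at 16 h, against 6670 and 6892 without hCG. Ptprc, which encodes CD45, the marker of all leukocytes, read 4.90 and 5.55 at 8 h and 7.64 and 7.98 at 16 h. The integrin chain gene Itgb2 read 4.90 and 5.75, then 8.26 and 8.50. Tyrobp, an adaptor of myeloid receptors, read 6.03 and 5.81, then 8.24 and 7.94. The complement genes C1qc, C1qa and C1qb, made by macrophages, rose by 2.42 ± 0.16, 2.31 ± 0.19 and 1.72 ± 0.15, and the macrophage genes Mrc1 and Adgre1 by 1.96 ± 0.20 and 1.35 ± 0.15. The antigen presentation gene H2-Ab1 rose by 2.77 ± 0.19, a value that related H2 genes can share. The T-cell gene Cd3e (0.02 ± 0.15) and the B-cell gene Cd79a (−0.03 ± 0.19) were not called, and Itgam, Cd3g, S100a9 and Nkg7 were among 7 markers too dim to test. Lysozyme genes rose most, Lyz1 by 3.47 ± 0.30 and Lyz2 by 3.32 ± 0.26, which their near-identical sequences keep from being told apart.

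Epithelial genes listed as oviduct markers also rose in part. Of 17 tested, 8 rose and 0 fell, with a median change of 0.36. That count was 5 without 8 h replicate 2, 5 without 16 h replicate 1, 5 without probe sets that may cross-hybridise and 4 with the stricter filter. The keratin gene Krt8 read 9.75 and 9.65 at 8 h and 12.18 and 12.10 at 16 h, and the adhesion gene Cdh1 read 5.78 and 5.50, then 7.35 and 7.06. Krt8 read 10.60 and 10.68 without hCG. The other rises were those of Ovgp1 and Krt18, given above, and of Krt19, Lcn2, Esrp1 and Rsph1, the last 4 calls lost without at least 1 array. Not called were 9 members, among them Epcam (0.15 ± 0.22) and Ehf (−0.02 ± 0.16), and 10 more were too dim to test, among them Foxj1, Pax8, Krt7, Wfdc2 and Muc16. The summed signal of the 17 markers was 3075 and 3119 at 8 h, 12373 and 10742 at 16 h and 5425 and 5603 without hCG. The part of oviduct cells in these results was not tested. Of 10 endothelial markers 1 rose and 1 fell (7 were too dim to test), and of 15 theca and stroma markers 2 rose and 4 fell. The rise was that of Ramp2 (2.38 ± 0.17), a partner of the adrenomedullin receptor, and both theca rises were lost without any 1 array of either time, as was the endothelial fall of Sox18 without 8 h replicate 1 or 2 or 16 h replicate 2. Theca falls numbered 2 without 8 h replicate 2 or either 16 h array and 7 without either array of complexes without hCG. Of 6 ovarian surface markers 3 rose and 1 fell, led by Gpm6a (1.58 ± 0.17), and of 5 erythrocyte markers 0 were called. The surface counts were 1 and 0 with the stricter filter.

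Genes of lysosomal enzymes and membrane proteins, which digest material brought in by endocytosis and autophagy, rose in 25 of 48 instances and fell in 0, with a median change of 0.53. The count rested on small changes. It was 10 without 8 h replicate 1, 12 without 8 h replicate 2, 9 without 16 h replicate 1 and 14 without 16 h replicate 2. Gm2a, the activator of ganglioside breakdown, read 9.95 and 10.09 at 8 h and 12.47 and 12.42 at 16 h. Lgmn, an asparaginyl protease, read 9.02 and 9.25 without hCG, then 10.78 and 10.95, then 12.75 and 12.71. The mannosidase genes Manba and Man2b1 rose by 1.67 ± 0.23 and 1.20 ± 0.15, the protease genes Ctsd and Ctss by 0.92 ± 0.16 and 3.23 ± 0.50, and Grn, the progranulin gene, by 0.91 ± 0.15. Ctss is known mainly from antigen-presenting cells, and its arrays read 7.64 and 8.49 at 8 h and 11.04 and 11.56 at 16 h. The membrane protein genes Lamp1 (0.40 ± 0.19) and Lamp2 (0.25 ± 0.17) and the transcription factor gene Tfeb (−0.18 ± 0.17), a known activator of lysosomal genes, were not called. The palindrome TCACGTGA, the element that TFEB binds, which contains CACGTG, was in 5 of 40 tested members with a promoter entry (12.5%), among them 3 of the 22 that rose, against 1.99% of tested genes and 0.974% of all promoters of the table. Ctsd and Mcoln1, the gene of a lysosomal calcium channel, are shown with it in capitals, at chr7:142387828-142387951 (minus strand) and chr8:3500448-3500518 (plus strand) on GRCm38.p6. It begins 99 and 46 bases before their starts. Mcoln1 changed by 0.53 ± 0.15, a call lost without any 1 array of either time (0.46 to 0.60).
Ctsd: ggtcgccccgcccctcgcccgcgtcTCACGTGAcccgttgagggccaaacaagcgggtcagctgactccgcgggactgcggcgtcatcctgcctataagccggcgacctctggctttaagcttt
Mcoln1: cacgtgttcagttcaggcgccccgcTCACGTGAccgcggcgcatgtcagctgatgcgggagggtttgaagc

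Oocyte messages split in opposite directions. Of 31 tested oocyte markers 14 rose and 8 fell, with a median change of 0.54, and 11 to 16 rose and 6 to 8 fell with 1 array left out. Every tested member stood higher on both arrays without hCG than on both 8 h arrays, and none had both 16 h arrays back at that level. Bmp15, a growth factor of the oocyte that acts on cumulus cells, read 9.33 and 9.49 without hCG, 7.21 and 7.39 at 8 h and 8.74 and 8.52 at 16 h. Gdf9, its relative, read 13.40 and 13.08, then 11.31 and 11.34, then 12.56 and 12.41. Both 16 h arrays of each lay between the other groups. Dazl, an RNA-binding protein that promotes translation of stored messages, read 6.95 and 7.25 at 8 h and 8.91 and 8.48 at 16 h. Btg4, an adaptor for removal of maternal messages, rose by 1.32 ± 0.17, and Mos, the kinase that holds the egg at its second arrest, by 1.17 ± 0.16. Omt2a (1.67 ± 0.26), Rfpl4 (1.63 ± 0.15), Tcl1 (1.45 ± 0.19), Obox5 (1.22 ± 0.17) and Oosp1 (1.19 ± 0.17) rose by similar amounts.

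Some zona pellucida genes and genes of the maternal cytoplasm fell. Zp2, which encodes a protein of the zona pellucida coat around the oocyte, read 12.39 and 12.35 without hCG, 9.73 and 9.60 at 8 h and 7.46 and 7.53 at 16 h. Zp3, the other zona gene with a large fall, read 9.77 and 9.56, then 8.19 and 7.35. Padi6, a member of the maternal complex under the oocyte membrane, read 10.73 and 10.77, then 8.74 and 8.31, and Ooep, another member, read 10.76 and 10.36, then 8.72 and 8.54. All 4 genes had both 16 h arrays under both 8 h arrays, with changes of −2.17 ± 0.15, −1.90 ± 0.26, −2.22 ± 0.18 and −1.93 ± 0.19. Gtsf1, of the piRNA pathway, had the largest fall, −2.68 ± 0.16, and its second probe set, which becomes the brighter one without any 1 array of the no-hCG or 8 h groups, gave −1.54 without either no-hCG array, −1.40 without 8 h replicate 1 and −1.67 without 8 h replicate 2. Nlrp14 fell by 1.08 ± 0.16. The transcription factor gene Figla (−0.24 ± 0.16) and the polyadenylation factor gene Cpeb1 (0.19 ± 0.16) were not called. Changes within the list thus ran from −2.68 to 1.67, and 12 of the 14 rises lay between 1.16 and 1.67.

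**Figure D5:**
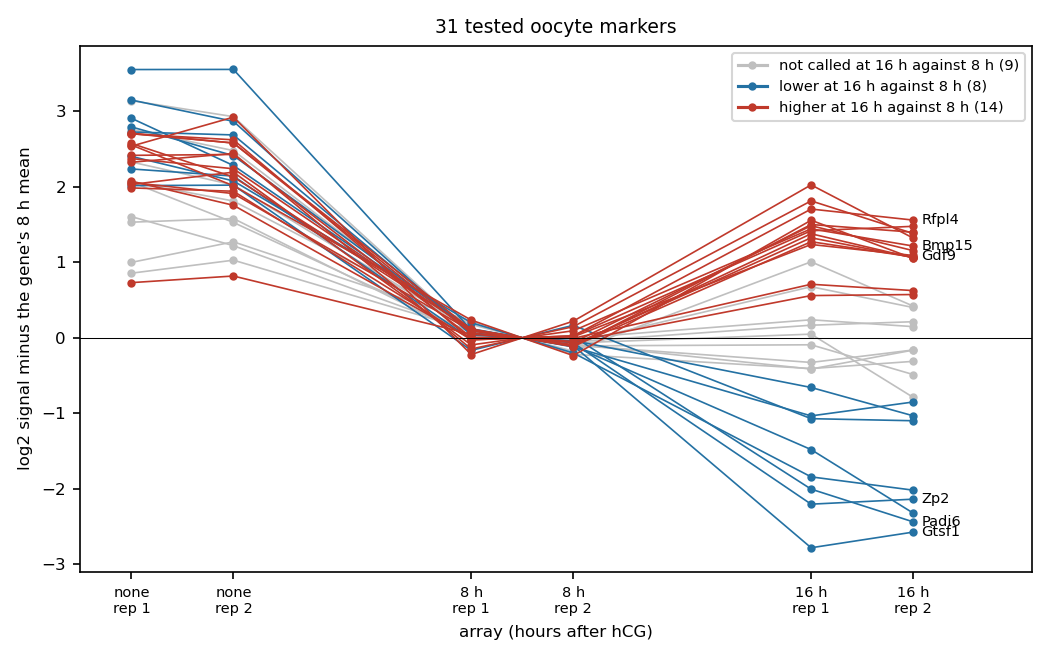
Log2 signal of 31 tested oocyte markers minus each gene's 8 h mean (vertical axis) on the 6 arrays (horizontal axis), 1 line per gene. The 14 that rose (red), the 8 that fell (blue) and the 9 not called (grey) start together above 0 without hCG and part at 16 h, from 1.67 for Omt2a to −2.68 for Gtsf1.

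Most tested genes of DNA replication, which cumulus cells express while they still divide, fell. Of 41 tested, 27 fell and 0 rose, with a median change of −0.78. Without 8 h replicate 1 and without 8 h replicate 2 the count was 16 and 15, and up to 30 fell when another array was left out. Cdc6, Mcm5 and E2f7 are shown because they were among the largest falls and hold the E2F element, searched for as TTTNNCGC on either strand. Their promoters lie at chr11:98907988-98908150, chr8:75109331-75109508 (2 overlapping elements) and chr10:110745216-110745438 on GRCm38.p6, each on the plus strand, and are printed as for the interferon genes.
Cdc6: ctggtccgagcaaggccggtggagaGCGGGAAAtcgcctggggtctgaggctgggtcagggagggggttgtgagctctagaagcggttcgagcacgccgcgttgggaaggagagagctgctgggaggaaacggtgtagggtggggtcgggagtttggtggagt
Mcm5: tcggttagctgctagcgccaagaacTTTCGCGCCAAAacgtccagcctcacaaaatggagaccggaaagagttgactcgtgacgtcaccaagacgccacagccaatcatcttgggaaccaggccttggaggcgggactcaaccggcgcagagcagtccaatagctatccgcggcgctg
E2f7: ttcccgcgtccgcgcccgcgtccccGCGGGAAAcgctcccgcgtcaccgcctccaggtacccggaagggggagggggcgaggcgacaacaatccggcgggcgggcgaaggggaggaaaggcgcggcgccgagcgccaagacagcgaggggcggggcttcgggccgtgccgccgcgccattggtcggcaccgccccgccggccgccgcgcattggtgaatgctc

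The E2F element begins 138 bases before the start in Cdc6, 153 in Mcm5 and 198 in E2f7. It was in 15 of 35 tested members with a promoter entry (42.9%), in 9 of the 22 that fell and in 6 of the 13 not called, against 9.31% of tested genes and 5.17% of all promoters of the table. Cdc6, which loads the replicative helicase onto DNA, read 9.79 and 10.17 without hCG, 8.45 and 8.38 at 8 h and 5.92 and 5.58 at 16 h. Mcm5, a subunit of that helicase, read 11.60 and 11.82, then 10.43 and 10.53, then 9.04 and 8.83. E2f7, a repressor of the E2F family, read 8.86 and 8.98 at 8 h and 6.98 and 7.23 at 16 h. In each the levels stepped down at both times with no overlap of arrays. The helicase genes Mcm3 and Mcm10 fell by 1.29 ± 0.15 and 1.04 ± 0.16, the primase gene Prim1 by 1.43 ± 0.17 and the thymidine kinase gene Tk1 by 1.42 ± 0.17. The ribonucleotide reductase genes Rrm2 and Rrm1 fell by 1.87 ± 0.26 and 0.99 ± 0.15. Mcm6 (−0.11 ± 0.17), E2f1 (−0.03 ± 0.16) and the replication licensing gene Orc1 (−0.01 ± 0.15) were not called. Orc1 read 8.76 and 8.65 without hCG and 7.07 and 6.99 at 8 h, so it was low at 8 h already.

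Genes of mitosis and the kinetochore fell in 27 of 43 instances and rose in 2, with a median change of −0.68. Falls numbered 15 without 8 h replicate 1, 10 without 8 h replicate 2, 17 without 16 h replicate 1 and 9 without 16 h replicate 2. Both rises, of Bub1b (0.61 ± 0.15) and Pttg1 (0.53 ± 0.15), were lost without any 1 array of either time. Oocytes also express these genes, and the part of the oocyte in their rise was not tested. Spc25, a kinetochore protein, read 10.62 and 10.68 at 8 h and 9.47 and 9.02 at 16 h. Aurkb, the kinase of the chromosomal passenger complex, read 9.92 and 10.14, then 8.86 and 8.72, and its partner Incenp fell by 1.00 ± 0.16. The ubiquitin-conjugating gene Ube2c and the kinase gene Ttk fell by 1.11 ± 0.17 and 1.03 ± 0.16. In 26 of the 27 falls 16 h replicate 1 lay above replicate 2, with a median gap of 0.18. Over all tested genes this held in 7809 of 13559, with a median gap of 0.04.

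Inhibitors and partners of the cell cycle kinases moved both ways. Of 24 tested, 5 rose and 6 fell, with a median change of −0.15, and 3 rose without any 1 array of either time. Cdkn1b, which encodes the inhibitor p27, read 9.32 and 10.24 without hCG, 10.25 and 10.38 at 8 h and 11.90 and 11.78 at 16 h. The inhibitor gene Cdkn2b read 6.46 and 6.21 at 8 h and 7.84 and 8.07 at 16 h. Gadd45a, a growth arrest gene, rose by 2.04 ± 0.22 and its relative Gadd45g fell by 2.46 ± 0.25. Cdk6, a partner kinase of D cyclins, read 11.29 and 11.32, then 8.96 and 9.35, and the pocket protein gene Rbl1 fell by 1.16 ± 0.18. Ccnd2, the D cyclin of granulosa cells, read 12.73 and 12.73 without hCG, 10.33 and 10.06 at 8 h and 9.70 and 9.69 at 16 h, and its late change of −0.50 ± 0.16 was not called (adjusted p = 0.0576 by limma).

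Cumulus cells break glucose down to pyruvate and lactate, which feed the oocyte. Of 27 tested genes of glucose uptake, glycolysis and lactate export, 13 rose and 2 fell, with a median change of 0.47. The rises numbered 8 without 16 h replicate 1 and 6 without probe sets that may cross-hybridise. Pfkp, the platelet-type phosphofructokinase, read 11.51 and 11.35 without hCG, 9.91 and 9.83 at 8 h and 12.10 and 12.00 at 16 h. Its liver-type relative Pfkl read 10.68 and 10.80 at 8 h and 12.73 and 12.65 at 16 h. Pdk1, which closes pyruvate off from the mitochondria, read 8.61 and 8.64, then 11.02 and 10.70. All 3 were lowest at 8 h, with arrays of the other groups above. Aldoc rose by 2.07 ± 0.16, the lactate exporter gene Slc16a3 by 2.11 ± 0.24, Tpi1 by 1.05 ± 0.16 and Pkm by 0.84 ± 0.15. The bifunctional enzyme genes Pfkfb4 and Pfkfb3, which set the activator of phosphofructokinase, fell by 2.10 ± 0.20 and 1.20 ± 0.19. Pfkfb4 read 7.32 and 7.66 without hCG, 11.03 and 10.58 at 8 h and 8.77 and 8.63 at 16 h. Hk2 (0.37 ± 0.18) and the pyruvate and lactate importer gene Slc16a1 (0.13 ± 0.20) were not called.

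Of 22 tested hypoxia-responsive genes 10 rose and 4 fell, with a median change of 0.45. Those falls numbered 2 without either 8 h array or 16 h replicate 1 and 1 without 16 h replicate 2. Vegfa, the vascular growth factor, read 9.33 and 9.27 at 8 h and 10.55 and 10.38 at 16 h. Ndrg1 read 7.78 and 7.95 without hCG, 10.42 and 10.20 at 8 h and 11.80 and 12.08 at 16 h. Ankrd37 rose by 1.65 ± 0.22, the collagen hydroxylase gene P4ha2 by 1.25 ± 0.15 and Egln1, which marks HIF proteins for destruction, by 1.04 ± 0.17. Hif1a changed by 0.28 ± 0.21 and was not called, while Epas1, the gene of the related factor, fell by 3.53 ± 0.16. Few genes of the mitochondrial respiratory chain and ATP synthase were called. Of 51 tested, 0 rose and 4 fell, a share of 7.84% called against 20.9% of all genes, with a median change of −0.14. The share that fell was near the 9.12% of all genes. Both 16 h arrays lay below both 8 h arrays in 25 of the 51 and above them in 4, against 28.2% and 33.7% of all genes. The 4 falls were those of Cycs, Atp5e, Uqcrq and Cox5a, and 1 or 0 of them remained with any 1 array of either time left out (0 without 16 h replicate 2).

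Several glutathione transferases, which attach glutathione to reactive compounds, fell steeply. Of 35 tested glutathione and antioxidant genes 8 fell and 5 rose, with a median change of −0.27. The 5 rises numbered 3, 2, 1 and 2 without 8 h replicate 1, 8 h replicate 2, 16 h replicate 1 and 16 h replicate 2, and 8 without either array of complexes without hCG, with only the 4 arrays compared or with the stricter filter. Gsta4 read 11.92 and 11.65 without hCG, 13.47 and 13.44 at 8 h and 8.55 and 8.34 at 16 h. Gsta2, which the closely related Gsta1 can share, read 7.46 and 8.08, then 11.76 and 11.68, then 6.37 and 6.29. Both genes peaked at 8 h and lay below their level without hCG at 16 h, with changes of −5.01 ± 0.16 and −5.39 ± 0.21. The mu class genes Gstm1, Gstm2 and Gstm7 fell by 2.89 ± 0.23, 2.54 ± 0.20 and 1.68 ± 0.15, values their similar sequences may share, while the mu class genes Gstm4 (0.04 ± 0.15) and Gstm5 (−0.51 ± 0.17) were not called. Gclc, the rate-limiting subunit of glutathione synthesis, read 10.02 and 10.13 without hCG, 11.94 and 11.77 at 8 h and 10.01 and 9.92 at 16 h. Mgst2, a microsomal transferase, read 8.90 and 8.77, then 11.37 and 11.22. Gstp1 (−0.11 ± 0.15), Txnrd1 (−0.05 ± 0.17), Hmox1 (−0.29 ± 0.17) and the regulator gene Nfe2l2 (0.25 ± 0.19) were not called.

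Several heat shock genes fell. Of 22 tested chaperone genes 8 fell and 0 rose, with a median change of −0.34, and 5 fell without 8 h replicate 1, without 8 h replicate 2 or without 16 h replicate 1. Hspa1a, an inducible HSP70 gene, read 9.20 and 8.45 without hCG, 11.80 and 10.90 at 8 h and 7.38 and 7.26 at 16 h. Its near-identical neighbour Hspa1b, which the same RNA can reach, read 12.93 and 12.14, then 9.49 and 9.57. Hspa2 read 6.44 and 6.58 without hCG, 9.54 and 10.01 at 8 h and 7.75 and 7.77 at 16 h. In these genes both 8 h arrays were above all others. Cryab, a small heat shock protein, fell by 2.31 ± 0.24, a gene too dim to test without either 8 h array. The Hsp110 gene Hsph1 fell by 1.01 ± 0.16. Other chaperone genes were not called, among them Hspa8 (−0.09 ± 0.15), Hsp90aa1 (−0.12 ± 0.17), Hspd1 (0.11 ± 0.17) and Cct5 (0.08 ± 0.16). In 6 of the 8 falls 8 h replicate 1 lay above replicate 2, with a median gap of 0.50, against 6464 of 13559 genes and a median gap of −0.01 overall.

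Steroid genes moved both ways. Of 21 tested, 3 rose and 6 fell, with a median change of 0.08. Akr1c18, the enzyme that inactivates progesterone, read 8.28 and 8.18 without hCG, 10.57 and 10.45 at 8 h and 13.09 and 13.17 at 16 h. Tspo, a protein of the outer mitochondrial membrane, read 10.78 and 10.80 at 8 h and 12.15 and 12.20 at 16 h. Star, which moves cholesterol into mitochondria, read 6.71 and 7.62 without hCG, then 13.53 and 13.63, then 11.74 and 11.56. Sult1e1, the estrogen sulfotransferase, read 5.55 and 5.87, then 13.49 and 13.79, then 10.91 and 10.42. Star and Sult1e1 thus stayed well above their level without hCG. Hsd17b1, which makes estradiol, fell by 1.10 ± 0.16. The side-chain cleavage gene Cyp11a1 (0.19 ± 0.21) and Hsd3b1 (−0.10 ± 0.15), which make progesterone, were not called. In cholesterol biosynthesis 11 of 17 genes fell and 1 rose, with a median change of −0.87, and 8 to 12 fell with 1 array left out. Mvk, an early kinase of the pathway, read 10.36 and 10.24 at 8 h and 8.97 and 8.95 at 16 h, and Sqle, the squalene oxidase, read 12.39 and 12.52, then 11.30 and 11.32. Tm7sf2, a late reductase, rose by 0.92 ± 0.16. The sterol response element, searched for as TCACNCCAC on either strand, was in 1 of 14 members with a promoter entry, Hmgcs1, which was not called, and in 1.47% of tested genes and 1.24% of all promoters of the table. Of 20 genes of sterol sensing, LDL uptake and fatty acid synthesis 3 rose and 4 fell, with a median of −0.03. Rises numbered 1 without 8 h replicate 1 or either 16 h array, and falls 1 without 8 h replicate 1 and 2 without 16 h replicate 2. Mylip, which marks the LDL receptor for breakdown, rose by 1.18 ± 0.16, and the sterol carrier gene Stard4 fell by 1.12 ± 0.17.

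The progesterone receptor list, which holds the receptor and its ovulatory targets, had 13 of 20 members fall and 1 rise, with a median change of −1.24 and 10 to 13 falls with 1 array left out. Pgr itself read 8.13 and 7.71 at 8 h and 5.45 and 5.60 at 16 h. Pparg, a lipid-sensing nuclear receptor, read 12.25 and 11.67, then 9.88 and 9.70. Prkg2, the cGMP-dependent kinase II, read 12.18 and 12.34, then 10.75 and 10.55. Both arrays of each gene were lower at 16 h. Cdc42ep3, an effector of a small GTPase, rose by 2.01 ± 0.20. Fkbp5 (0.30 ± 0.16), Cited2 (0.16 ± 0.16) and the endothelin gene Edn2 (−0.48 ± 0.27, with 9.01 and 8.32 at 16 h) were not called. For the granulosa gene list 10 of 27 fell and 1 rose, with a median change of −0.25, and 6 fell without 16 h replicate 1. The FSH receptor gene Fshr read 11.07 and 10.99 at 8 h and 8.63 and 8.72 at 16 h, and the inhibin subunit gene Inhbb fell by 1.42 ± 0.20. Of the 16 cumulus and granulosa markers 1 rose and 8 fell, with a median of −0.56. Falls numbered 5 without 8 h replicate 2 and 4 without 16 h replicate 1, and the rise was lost without 8 h replicate 1 or either 16 h array. Wt1, a transcription factor of granulosa cells, fell by 1.31 ± 0.22.

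Among ovulatory signals, EGF-like ligands and receptors had 4 rises and 4 falls in 14 tested genes, with a median change of 0.01, and the rises numbered 1 or 2 without any 1 array of either time (2 without 8 h replicate 2). The ligand gene Epgn read 10.43 and 9.53 at 8 h and 7.61 and 7.34 at 16 h. The receptor gene Egfr read 10.46 and 10.14, then 8.24 and 8.07, and Errfi1, which blocks the receptor, fell by 1.35 ± 0.15. The receptor gene Erbb3 instead read 6.78 and 7.26, then 8.45 and 8.47. Prostaglandin genes rose in 3 of 18 instances and fell in 3, with a median of 0.17. The falls numbered 1 without 8 h replicate 2 or 16 h replicate 2, and the rises 5 without either array of complexes without hCG or with only the 4 arrays compared. Ptgs2, the inducible cyclooxygenase, read 5.61 and 5.39 without hCG, 11.69 and 11.80 at 8 h and 12.62 and 12.89 at 16 h. The prostaglandin E receptor gene Ptger2 read 7.61 and 8.07, then 9.78 and 9.64, while the prostaglandin transporter gene Slco2a1 read 12.06 and 12.26, then 10.34 and 10.30. Of 15 matrix genes 3 rose and 6 fell, with a median of 0.00, and 1 rose without 8 h replicate 1 or either 16 h array. Has2, the hyaluronan synthase of expansion, read 9.01 and 8.92, then 7.07 and 7.05, and Vcan, the proteoglycan versican, fell by 1.04 ± 0.18. Cemip, which breaks hyaluronan down, read 7.83 and 8.05, then 10.43 and 10.58. Itih5, of the family whose heavy chains bind hyaluronan, fell by 2.71 ± 0.19. Of 12 genes that make the sugar precursors of hyaluronan 3 rose and 0 fell, with a median of −0.02, and 1 rose without 8 h replicate 1 or 16 h replicate 1. The rise kept was that of Nagk, a kinase that recycles N-acetylglucosamine, 1.30 ± 0.17.

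Immediate-early transcription factors rose in 5 of 26 instances and fell in 9, with a median change of −0.46. Rises numbered 3 without 8 h replicate 1, without 16 h replicate 2 or without probe sets that may cross-hybridise. Nr4a2, an orphan nuclear receptor, read 6.47 and 6.06 at 8 h and 8.84 and 8.64 at 16 h, and Egr2 read 9.07 and 9.11, then 10.87 and 10.96. Jun, a subunit of AP-1, read 12.78 and 13.01, then 10.90 and 11.19. Fosb, another AP-1 subunit, read 11.16 and 10.80, then 8.28 and 8.92. Atf3 and Klf4 fell by 2.57 ± 0.33 and 1.89 ± 0.21, and Myc rose by 1.39 ± 0.17. Of 19 feedback genes of ERK signalling 3 rose and 5 fell, with a median of −0.05. The falls numbered 2, 3, 2 and 3 without 8 h replicate 1, 8 h replicate 2, 16 h replicate 1 and 16 h replicate 2, and 1 rise was left without probe sets that may cross-hybridise. The phosphatase gene Dusp5 read 10.07 and 9.73 at 8 h and 7.84 and 8.35 at 16 h, and Dusp4 read 9.43 and 9.33, then 10.44 and 10.43. Among 20 genes of meiotic arrest and resumption 2 rose and 5 fell, with a median of −0.10. Falls numbered 2 without 8 h replicate 2 and 3 without either 16 h array, and 1 rise held without any 1 array of either time. Pde5a, which breaks down cGMP, the signal that keeps the oocyte arrested, read 5.67 and 6.05 without hCG, 6.80 and 6.78 at 8 h and 9.75 and 9.80 at 16 h. Pde7b, a cAMP phosphodiesterase, fell by 1.59 ± 0.21, and Gja4, the gap junction protein between oocyte and cumulus, by 1.00 ± 0.18.

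Growth factor systems had members that rose and members that fell. Of 40 tested TGF-beta and BMP genes 10 rose and 8 fell, with a median of 0.02. Rises numbered 6 without 16 h replicate 2, and falls 5 without either 8 h array or 16 h replicate 2 and 4 without 16 h replicate 1. Ltbp1, which stores TGF-beta in the matrix, read 9.18 and 9.48 at 8 h and 11.79 and 11.95 at 16 h, and its relative Ltbp3 read 10.67 and 10.68, then 12.21 and 12.56. The ligand gene Bmp6 rose by 1.59 ± 0.15 and Bmp2 fell by 1.58 ± 0.20. Nbl1, a secreted BMP antagonist, fell by 1.84 ± 0.17. Tgfb2 is counted among the 10 rises by its brightest probe set (1.46 ± 0.22), but 1 of its 3 probe sets fell (−0.57). The brightest read 7.51 and 7.02 at 8 h and 8.72 and 8.74 at 16 h. Without 16 h replicate 1 or replicate 2 another probe set became the brightest, and the gene's change was then −0.58 and −0.56. Of 26 Wnt genes 6 rose and 2 fell, with a median of 0.08, and 3 rose without either 16 h array while 1 fell without either 8 h array. Wnt4, a ligand of ovarian development, read 9.79 and 9.99, then 12.32 and 12.63. The receptor gene Fzd1 read 12.47 and 12.59, then 10.60 and 10.79, whereas Fzd5 rose by 1.31 ± 0.20. In the IGF system 4 of 18 genes rose and 4 fell, with a median of 0.00, and 2 rose without 8 h replicate 1 while 2 fell without 8 h replicate 2 or 16 h replicate 2. The binding protein gene Igfbp6 read 8.97 and 8.99, then 11.24 and 10.96, and Igfbp3 read 7.56 and 8.11, then 5.83 and 5.64. Pappa, the protease that frees IGF from a binding protein, fell by 1.72 ± 0.20. Of 20 vascular ligand and receptor genes 4 rose and 4 fell, with a median of −0.08 and 2 falls with the stricter filter. The lymphatic growth factor gene Vegfc rose by 2.15 ± 0.25, the endothelin receptor gene Ednrb by 1.88 ± 0.24, and the ephrin gene Efnb2 fell by 2.69 ± 0.21.

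Of 20 integrins and cell surface proteoglycans 8 rose and 2 fell, with a median of 0.29, and 4 rose without 8 h replicate 1 or 16 h replicate 2. The collagen receptor chain gene Itga1 read 6.35 and 6.74 at 8 h and 8.01 and 7.87 at 16 h, and Itga9 read 7.59 and 7.97, then 9.24 and 9.10. Of 30 collagen and basement membrane genes 9 rose and 3 fell, with a median of 0.14. Rises numbered 5 without 16 h replicate 2 and falls 1 without 16 h replicate 1. Fn1, which encodes fibronectin, read 9.93 and 10.24, then 11.23 and 11.64, and Col18a1, a basement membrane collagen, rose by 1.31 ± 0.16. The fibrillar collagen gene Col1a2 fell by 1.55 ± 0.23. Among 25 proteases and inhibitors 8 rose and 6 fell, with a median of 0.12, and 5 rose without either 16 h array. Adam8, a membrane protease, fell by 3.13 ± 0.19, and Adamts1, which cleaves versican, read 12.77 and 13.10, then 11.44 and 11.56. The gelatinase gene Mmp2 rose by 1.64 ± 0.17 and the protease inhibitor genes A2m and Slpi by 1.90 ± 0.15 and 1.78 ± 0.18. Of 17 tight junction genes 3 rose and 4 fell, with a median of 0.04. Rises numbered 1 without 8 h replicate 1 or 16 h replicate 1 and 5 with only the 4 arrays compared, and falls 2 without probe sets that may cross-hybridise. Cldn1 read 4.63 and 4.92 without hCG, 9.36 and 9.36 at 8 h and 4.80 and 4.67 at 16 h. Jam3 fell by 2.36 ± 0.16 and the adaptor gene Cgn by 1.85 ± 0.17, while F11r, of the same adhesion family as Jam3, rose by 1.83 ± 0.16.

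Neuropeptide and secretory vesicle genes fell in 12 of 34 instances and rose in 1, with a median of −0.02, and 6 fell without 8 h replicate 1 and 7 without 16 h replicate 2. Snap25, a vesicle fusion protein, read 4.46 and 3.87 without hCG, 10.32 and 10.45 at 8 h and 6.75 and 5.52 at 16 h. Tac1, the substance P precursor, read 8.72 and 8.55 at 8 h and 6.32 and 6.31 at 16 h. Scg2, a granin of secretory granules, read 8.37 and 7.78, then 5.58 and 5.66. Rab27a, a GTPase of granule docking, read 5.20 and 5.67, then 7.92 and 7.99. Of 47 innate immune and cytokine genes 9 rose and 7 fell, with a median of 0.02 and 5 rises with the stricter filter. The cytokine receptor gene Osmr read 6.60 and 6.79, then 8.73 and 8.97, and Il6st, the signal chain it shares with other receptors, fell by 1.10 ± 0.19. Cd52 and Cd14, surface proteins of leukocytes, rose by 2.71 ± 0.19 and 2.04 ± 0.18, the chemokine gene Cxcl2 by 1.75 ± 0.24, and the cytokine signalling inhibitor gene Socs2 fell by 1.61 ± 0.18.

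Iron genes rose in 7 of 22 instances and fell in 2, with a median of 0.12, and rises numbered 3, 4, 2 and 4 without 8 h replicate 1, 8 h replicate 2, 16 h replicate 1 and 16 h replicate 2. Beside ferroportin and Scara5, given above, the phagosomal metal transporter gene Slc11a1 read 6.95 and 7.03 at 8 h and 9.65 and 9.59 at 16 h, and the ferroxidase gene Heph read 11.18 and 11.34, then 9.75 and 9.69. Slc11a1 is also known from macrophages, whose markers rose, and the part of those cells in its rise was not tested. Amino acid transporters rose in 8 of 24 instances and fell in 5, with a median of 0.18. Rises numbered 5 without 8 h replicate 1 and 4 without each of the other arrays of both times, and falls 3 without replicate 2 of either time. The cystine importer gene Slc7a11 read 9.07 and 8.99, then 6.19 and 6.38, whereas the cationic amino acid transporter genes Slc7a2 and Slc7a1 rose by 1.32 ± 0.19 and 1.29 ± 0.18.

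Of 19 circadian clock genes 5 rose and 4 fell, with a median of −0.01, and rises numbered 2, 3, 3 and 2 without 8 h replicate 1, 8 h replicate 2, 16 h replicate 1 and 16 h replicate 2. Arntl, the activator of the clock, read 9.48 and 9.39 at 8 h and 10.49 and 10.41 at 16 h, and Nr1d2, a repressor, read 8.57 and 8.71, then 9.99 and 9.81. Dbp, an output gene, read 9.29 and 8.48, then 7.13 and 6.99, and Per1, a repressor of the loop, read 10.44 and 10.26, then 8.84 and 8.88. Hours of collection are not in the labels, so time after hCG and time of day cannot be told apart. The E-box CACGTG was in 4 of 16 members with a promoter entry, in 2 of the 4 that fell (Per1 and Cry1, the second a call lost without any 1 array of either time), 0 of the 4 that rose and 2 of the 8 not called, against 11.2% of tested genes and 7.15% of all promoters of the table. Bcl2 family and caspase genes rose in 4 of 24 instances and fell in 3, with a median of 0.00. Rises numbered 2 without either 8 h array or 16 h replicate 1 and 1 without probe sets that may cross-hybridise. Bmf, which promotes cell death, read 7.88 and 8.00, then 9.87 and 10.04, and the death genes Bid and Bok fell by 1.22 ± 0.18 and 1.10 ± 0.15. Genes of the unfolded protein response rose in 5 of 34 instances and fell in 5, with a median of 0.02. Of the rises, that of the disulfide isomerase gene Pdia4 (10.65 and 11.25, then 12.68 and 12.77) was the 1 that held without any 1 array of either time. Falls numbered 0, 1, 2 and 0 without 8 h replicate 1, 8 h replicate 2, 16 h replicate 1 and 16 h replicate 2.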

How the data were processed

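RNA of pooled cumulus-oocyte complexes was hybridised as biotin-labelled cRNA to 6 Affymetrix arrays, 2 per group, per the labels' protocols. The authors deposited 1 log2 value per probe set and array; their range gave the scale, and the software, background correction and normalization are not given in the sources used here. Array medians lay within 0.125 of each other. Of 45101 probe sets, 64 controls were left out, 34945 carried 1 symbol in the platform annotation, 932 several and 9160 none, and 34741 of those with 1 symbol matched RefSeq by gene number. Probe sets with several symbols or none were tested but not named. limma 3.58.1 (R 4.3.3) fitted 3 group means to all 6 arrays, with 3 residual and 6.43 prior degrees of freedom, after a filter at the 40th percentile of the mean, and Benjamini-Hochberg adjustment ran over 27022 probe sets. The code was tested on simulated data with 200 changed probe sets. Genes named by size were the 20 largest called rises and 20 largest falls whose higher group mean was at least 8.50 (75th percentile), and the 10 largest rises and falls with both group means at least 11.2 (95th percentile). Others were chosen within their lists after their values were seen. The members and the 45 lists (1271 genes, 1060 tested, 116 too dim) were chosen with earlier results of these data known. Probe sets described as ones that may cross-hybridise are all those whose names end in _x_at, _s_at or _a_at. The name alone does not show that a probe set reaches other genes. The stricter filter was set at the 60th percentile. The number of arrays limits the precision. Promoter sequences are RefSeq's, from a table of 32851 promoters of 27025 genes.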

Additional observations from a re-analysis of the deposited data

How the results depend on the processing

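Genes called numbered 2834 in the reported fit, 2886 after quantile normalization, 2676 with arrays centred on their median, 2830 with no filter on dim probe sets, 2681 with the filter at the 60th percentile and 3543 with only the 4 arrays compared. With the mean of a gene's probe sets they numbered 3258, without probe sets that may cross-hybridise 2430 and with an intensity trend in the variance 3020. Replicate numbers were not used as pairs in the reported fit. Deviations of same-numbered arrays correlated at 0.468 between no hCG and 8 h. The correlation was 0.00103 between no hCG and 16 h and 0.135 between 8 h and 16 h. Whether same-numbered arrays share a batch was not tested. With the replicate number as a block 3264 genes were called, among them all 2834. Under the block the rising glutathione genes numbered 8, the falling Wnt genes 4 and the rising erythrocyte markers 1.

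With 1 array left out in turn, 2490 to 6354 probe sets were called, 1215 to 3429 higher and 1175 to 2925 lower. Genes called higher numbered 770 to 2035 and lower 632 to 1518. Of called genes 49.4% were higher without 16 h replicate 1 and 60.3% without 16 h replicate 2. The construction leaves 1 array in a group, whose spread is assumed to be that of the others.

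A few genes whose probe sets differ changed sign. The brightest probe set was chosen anew in each setting, or the probe sets were averaged, so such a gene was read through other probe sets. For Npas2 the probe set of the reported fit read 4.88 and 4.88 at 8 h and 5.64 and 5.81 at 16 h. Leaving out 1 of these values cannot turn its sign, so its negative change was that of another probe set. With only the 4 arrays compared Cgnl1 changed by 1.38. With the mean of the probe sets Herc6 changed by 1.29, Cd55 by −0.61, Cgnl1 by 0.54 and Laptm5 by 1.14. Without probe sets that may cross-hybridise Btg1 changed by −0.41 and Herc6 by 2.41. With 1 array left out Tgfb2 ran from −0.58 to 1.71 and Npas2 from −0.086 to 0.85. These genes enter the list counts by their brightest probe set.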
